A study of Mus musculus with 18 samples.

Results

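The 37 genes carried by the mouse mitochondrial genome were examined in splenic and Peyer's patch (PP) B cells of mice sensitized to ovalbumin (OVA). They were chosen as the rows of the gene table whose symbol starts with mt-, which gave 37 of 55491 genes: 13 mRNAs, 2 rRNAs, and 22 tRNAs. All mice were female BALB/cJ, received i.p. alum (1 mg) carrying OVA (20 μg) on days 0 and 14, and were 10 to 12 weeks old at harvest on day 44. On days 28 and 42 they received i.v. PBS (100 μL), soluble OVA (100 μg), or OVA-encapsulating nanoparticles (OVA NPs, 2.5 mg). There was no unsensitized group. Each of the 6 groups (spleen or PP, with PBS, soluble OVA, or OVA NPs) held 3 libraries of poly(A)-selected RNA, labeled as biological replicates. B cells were purified in both tissues by magnetic negative selection. PPs were first digested with collagenase at 37 °C for 30 minutes, whereas spleens were only pressed through a filter and treated to lyse red cells, so that tissue and dissociation cannot be told apart. Whether the spleen and PP libraries with the same number came from the same mouse is not given in the sources used here.

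The mitochondrial genome encodes subunits of complexes I, III, and IV and of the ATP synthase, together with the rRNAs and tRNAs that translate them inside the organelle, and all other subunits of these complexes come from nuclear genes. Both strands are transcribed into long precursors by the polymerase POLRMT with its cofactor TFAM. The tRNAs that punctuate the precursors are cut out, which releases the mRNAs and rRNAs, and most of these receive short poly(A) tails. B cells raise mitochondrial activity when they are activated, and germinal center and plasma cells depend on it in different ways.

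The sequences of the genes bear on which values can be trusted. Coordinates are GRCm38 and positions count from 1. *mt-Atp8* and *mt-Atp6*, both ATP synthase subunits, share 43 bases (chrM:7927-7969) in different reading frames on the same strand, so a fragment within that stretch belongs to both, and the stretch is also the start of a nuclear gene, Gm10925, described with the nuclear copies.

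Shared bases of *mt-Atp8* and *mt-Atp6*: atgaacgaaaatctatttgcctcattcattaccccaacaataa

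*mt-Nd4l* and *mt-Nd4*, both complex I subunits, share 7 bases (chrM:10167-10173), and *mt-Nd5* and *mt-Nd6*, also complex I, share 14 bases on opposite strands (chrM:13552-13565), printed here as read on the strand of *mt-Nd5*.

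Shared bases of *mt-Nd5* and *mt-Nd6*: ttaatctcgagtaa

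*mt-Nd6* is the only mRNA of the 13 on the minus strand. The strand setting used for counting is not given in the sources used here, and without strand, reads of *mt-Nd6* and of antisense RNA from the other strand cannot be told apart. The coding regions of *mt-Co3*, *mt-Nd4*, and *mt-Cytb* end in a lone T (capital in the 30 bases shown for each), which becomes a stop codon only when a poly(A) tail is added, so the tail that the library protocol selects for is part of their reading frame.

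*mt-Co3* (chrM:9361-9390): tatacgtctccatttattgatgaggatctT

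*mt-Nd4* (chrM:11515-11544): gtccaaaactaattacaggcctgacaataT

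*mt-Cytb* (chrM:15259-15288): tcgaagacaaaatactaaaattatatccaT

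All 22 tRNAs, from *mt-Tf* at chrM:1-68 to *mt-Tp* at chrM:15356-15422, were at 0 in every one of the 18 libraries. They are 59 to 75 bases long, and of the 810 other genes in the table of that length, 0 held a count in any library. Of 3500 other genes of 101 to 150 bases, 22 held one. A count of 0 therefore gives no level for the tRNAs here. A floor of 3 counts corresponds to 0.0998 to 0.212 CPM (counts scaled to a library total common to all). All 13 mRNAs and both rRNAs had counts in all libraries and passed the filter on low counts in every comparison, so 15 of the 37 genes were tested throughout.

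*mt-Co1*, the catalytic core subunit of complex IV, had the highest level per length in all 6 groups, with 7190.2 ± 310.3 CPM per kb (mean ± SD, n = 3) in PBS spleen and 26105 ± 910.3 in OVA NP PPs. *mt-Cytb*, the complex III subunit, was next with 4145 ± 219 and 12204 ± 700.4 CPM per kb, followed by *mt-Nd1* of complex I with 2701 ± 206 and 7202 ± 499. These 3 genes kept that order in every group as counted, but not with the counts of the nuclear copies described below added. Within PBS spleen their libraries did not overlap with each other, while the lowest *mt-Nd1* library lay within the range of *mt-Nd2*. In PBS spleen the middle of the order was close, with *mt-Nd2* at 2153 ± 274, *mt-Co3* at 1579 ± 143, *mt-Nd5* at 1530.1 ± 273, and *mt-Nd4* at 1427 ± 151 CPM per kb, the last 3 with overlapping libraries. *mt-Co2* (1104 ± 79.8), *mt-Atp8* (984 ± 83.7), and the large-subunit rRNA *mt-Rnr2* (757 ± 146) stood below them, then *mt-Nd4l* (628 ± 91.7), *mt-Atp6* (515 ± 27.1), *mt-Nd6* (467 ± 62.3), and the small-subunit rRNA *mt-Rnr1* (429 ± 43.5), where the libraries of *mt-Nd6* overlapped with those of both neighbors. *mt-Nd3* was lowest in every group, at 4.86 ± 0.180 CPM per kb in PBS spleen and 15.5 ± 3.02 in OVA NP PPs. The rRNA levels in poly(A)-selected libraries cover only rRNA that survived the selection.

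**Figure D1:**
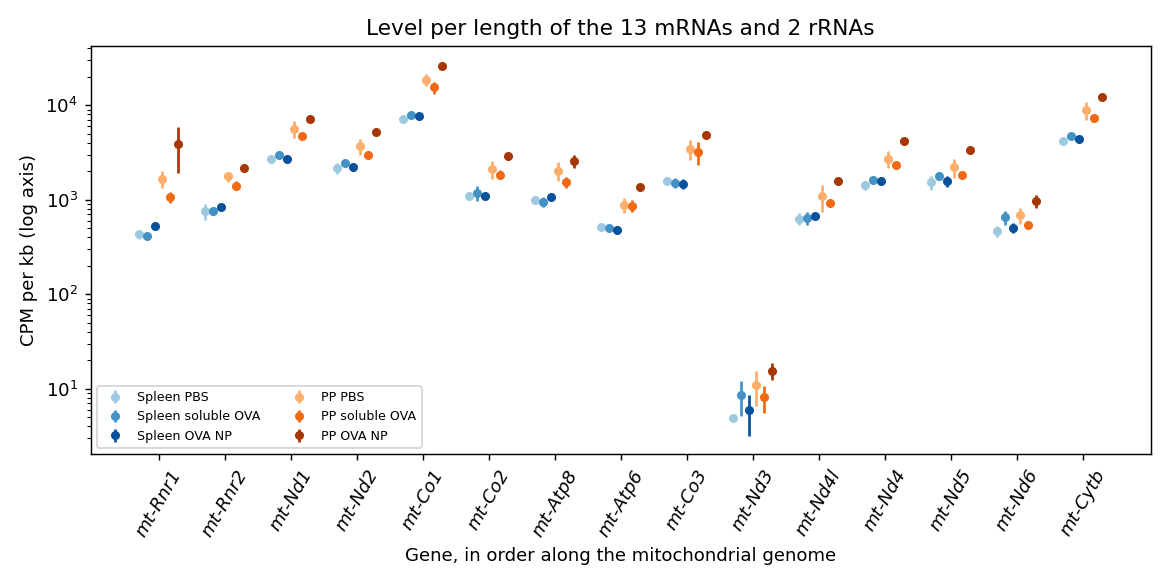
Level per length (CPM per kb, log axis) of the 13 mRNAs and 2 rRNAs in the 6 groups, in genome order, as the mean of 3 libraries with SD bars. *mt-Co1* is highest and *mt-Nd3* lowest in every group, and the OVA NP PP libraries have the highest group mean for each of the 15 genes.

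The levels of *mt-Nd3* and 5 other mRNAs also depend on how reads were divided with near-identical nuclear copies. A 4663-base block on the minus strand of chromosome 1 (chr1:24611535-24616197) holds 7 unprocessed pseudogenes that copy consecutive mitochondrial genes. Without gaps, the copy had 0 differences over its whole length for *mt-Co3* (Gm28437, 783 bases), *mt-Co2* (Gm28661, 681 bases), *mt-Atp6* (Gm10925, 678 bases), and *mt-Nd4l* (Gm10222, 294 bases), and 0 differences over 876 of the 1378 bases of *mt-Nd4* (Gm28439). For *mt-Nd3*, the copy Gm28438 had 1 difference over 345 bases, T3C, counted from the first base of the gene on its own strand. The first 25 bases of both are shown because the changed base, in capitals, is the only one that differs between these reference sequences within the copy. The bases that the BALB/cJ mice carry were not examined, so whether this base tells their reads apart is not known.

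*mt-Nd3*: atTaacctgtacactgttatcttca

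Gm28438: atCaacctgtacactgttatcttca

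The first 45 bases of *mt-Co3* and Gm28437 show the usual case, with no base to tell them apart.

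*mt-Co3* and Gm28437: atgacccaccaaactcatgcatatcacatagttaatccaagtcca

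Counts were divided between gene and copy in proportions that differed from pair to pair. Medians over all treatments differed little between tissues. Gm28438 held a median of 97.9% of the counts of its pair with *mt-Nd3* in the 9 spleen libraries and 97.5% in the 9 PP libraries. Gm10925 held 86.2% and 86.4% of its pair with *mt-Atp6*, Gm28661 65.0% and 67.3% of its pair with *mt-Co2*, and Gm28437 59.2% and 60.5% of its pair with *mt-Co3*. Gm10222 held 14.7% and 12.5% of its pair with *mt-Nd4l*, and Gm28439 9.89% and 9.65% of its pair with *mt-Nd4*. With PBS alone, Gm10925 held 82.1% to 85.2% in spleen and 87.4% to 88.2% in PPs. Gm28661 held 60.9% to 63.3% and 67.3% to 69.0%. For these pairs the tissues did not overlap with PBS, while for the other pairs they did. With the copies' counts added, *mt-Nd3* reached 237 CPM per kb in PBS spleen and stayed lowest, *mt-Atp6* reached 3205, *mt-Co2* to 2939, and *mt-Co3* to 3735, between *mt-Cytb* and *mt-Atp6*. *mt-Nd1*, which has no such copy, then ranked 6 in every group. In PPs the mean of *mt-Co3* then lay above that of *mt-Cytb* in each treatment. With PBS these were 9052 ± 1516 and 8894.5 ± 1862 CPM per kb. The levels of these 6 genes, and the order of the genes between *mt-Co1* and *mt-Nd3*, are uncertain for this reason. The 9 copies that shared at least 25% of a member's 50-base stretches took 0.475% to 0.615% of all counts in spleen libraries and 0.934% to 1.82% in PP libraries. *mt-Co1* shared fewer stretches with its copies Gm29216 and Gm13340, which held at most 0.106% of the counts of a pair.

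**Figure D2:**
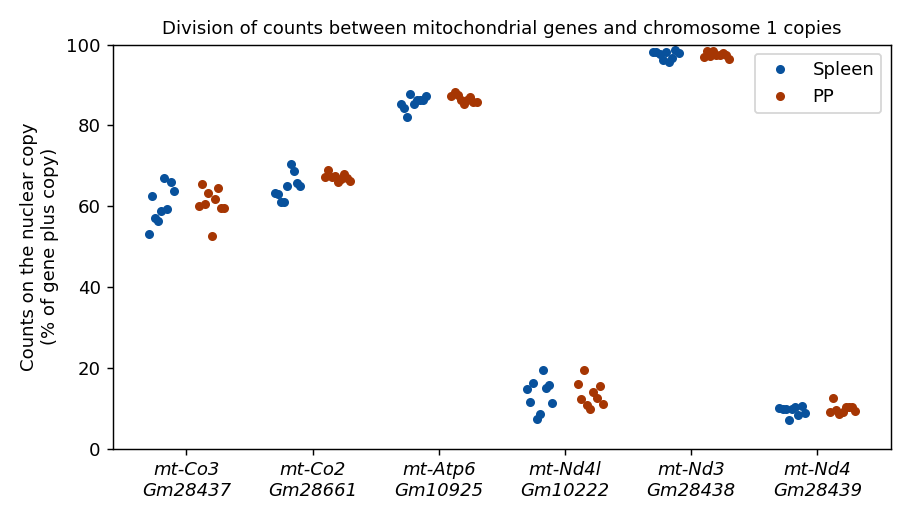
Share of the counts of each pair (mitochondrial gene plus its chromosome 1 copy) that was assigned to the copy, in percent, with 1 point per library (9 spleen, 9 PP). The points of both tissues overlap for all 6 pairs, and the median share runs from 9.65% for Gm28439 in PPs to 97.9% for Gm28438 in spleen.

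Library totals ran from 14177253 to 30052297 counts. At that depth the Wilson 95% interval of the mitochondrial share of a library was at most 0.0123 percentage points to either side, which covers counting error only, so the spread between libraries set the precision. B cell markers were present in all groups (7 of 7 genes above 0 in each), with summed levels of 8859 to 10589 CPM in spleen and 5617 to 7335 CPM in PPs.

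The mitochondrial genes took 2.82% to 3.41% of all counts in spleen libraries and 4.97% to 9.80% in PP libraries. In spleen the shares of replicates 1 to 3 were 3.19, 2.99, and 2.82% with PBS, 3.31, 3.41, and 3.19% with soluble OVA, and 3.39, 3.02, and 3.07% with OVA NPs, and the 3 groups overlapped. In PPs the shares were 7.67, 5.41, and 6.74% with PBS, 4.97, 6.02, and 5.51% with soluble OVA, and 9.29, 9.80, and 9.08% with OVA NPs. All 3 OVA NP PP libraries lay above all PBS and soluble OVA PP libraries, while the PBS and soluble OVA libraries overlapped. The means were 9.39% ± 0.372 (SD, n = 3) with OVA NPs, 6.61% ± 1.13 with PBS, and 5.50% ± 0.526 with soluble OVA, so that the OVA NP share was 1.71 times that with soluble OVA and 1.42 times that with PBS. No p is given for the share, since it is a score over the chosen genes, and the single genes were tested instead. The PBS group had the widest spread, with replicate 2 the lowest of its 3 libraries. In bulk RNA, fewer cells of a type and less RNA per cell cannot be told apart, and neither can more mitochondrial RNA and less of the other RNA in a library.

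**Figure D3:**
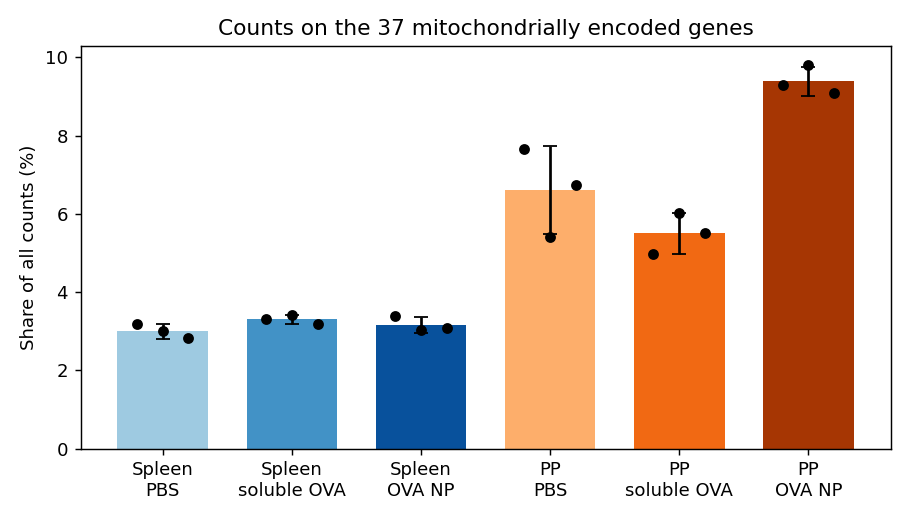
Share of all counts on the 37 mitochondrially encoded genes in percent, with bars for group means, error bars for SD, and points for the 3 libraries of each group. Every PP library is above every spleen library, and the 3 OVA NP PP libraries, at 9.08% to 9.80%, are above the other 6 PP libraries, which reach 7.67%.

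In PPs, all 13 mRNAs and the large-subunit rRNA were higher with OVA NPs than with soluble OVA, the comparison of the same antigen in encapsulated and free form. Of the 15 genes tested, 14 were called higher and 0 lower (edgeR quasi-likelihood test, Benjamini-Hochberg adjusted p under 0.05 and absolute log2 fold change above 0.25), against 13.8% of the 15599 genes tested called higher and 16.3% lower. The log2 fold changes of the 15 genes ran from 0.57 to 1.86 with a median of 0.74, beside a median of 0.03 over all genes tested. For *mt-Co1*, replicates 1 to 3 had 41118, 41172, and 38709 CPM with OVA NPs and 20819.7, 27449.5, and 23335 CPM with soluble OVA. The groups did not overlap, with a log2 fold change of 0.74 (SE 0.11, adjusted p = 0.00151). *mt-Cytb* had 14594, 14229.6, and 13060.2 CPM against 7805, 8734, and 8770.1 CPM, a log2 fold change of 0.71 (SE 0.09, adjusted p = 7.28e-04). The complex I subunits *mt-Nd5*, *mt-Nd6*, *mt-Nd4*, and *mt-Nd2* had log2 fold changes of 0.86, 0.83, 0.83, and 0.80, somewhat above *mt-Nd1* at 0.58 and *mt-Co2* at 0.63. *mt-Nd4l* and *mt-Atp8* were at 0.76 and 0.73, and the large-subunit rRNA *mt-Rnr2* was at 0.61 (SE 0.12, adjusted p = 0.00456). All 15 genes had groups that did not overlap, against 49.0% of all genes tested. The calls for *mt-Co3* (0.57, SE 0.17, adjusted p = 0.0359) and *mt-Nd3* (0.92, SE 0.29, adjusted p = 0.0406) were lost in 5 and 6 of the 6 fits that left out a library. With the copies' counts added, 14 genes were again called higher, with *mt-Co3* at 0.66 (SE 0.11, adjusted p = 0.00231) and *mt-Nd3* at 0.71 (SE 0.10, adjusted p = 0.00112). The copies had log2 fold changes of 0.72 for Gm28437, 0.65 for Gm28661, 0.67 for Gm10925, and 0.93 for Gm28439, beside 0.57, 0.63, 0.64, and 0.83 for *mt-Co3*, *mt-Co2*, *mt-Atp6*, and *mt-Nd4*.

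Against PBS, OVA NPs gave 0 called genes among the 15 in PPs, where 0% of the 15798 genes tested were called. All 15 log2 fold changes were positive, from 0.32 for *mt-Rnr2* to 1.24 for *mt-Rnr1*, with a median of 0.49 beside -0.01 over all genes tested. Without adjustment, 11 of the 15 had an edgeR p under 0.05, against 9.96% of all genes tested. DESeq2 called 8 of the 15, against 0.537% of all genes with a count. In 10 of the 15 the groups did not overlap, against 18.3% of all genes tested. For *mt-Co1* the PBS libraries held 32515, 24298, and 29072 CPM, all below the OVA NP libraries, with a log2 fold change of 0.51 (SE 0.10, adjusted p = 0.192). *mt-Atp6* had 924, 1004, and 857 CPM against 705, 489.7, and 624 CPM, a log2 fold change of 0.63 (SE 0.12, adjusted p = 0.220), and *mt-Nd4* had 0.65 (SE 0.13, adjusted p = 0.220). PBS replicate 2, which the labels number 19, after the other libraries (between 1 and 18), was the lowest PBS library for all 13 mRNAs. In each of the 6 fits that left out a library, 0 of the 15 genes were called.

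Soluble OVA against PBS in PPs gave 15 negative log2 fold changes, from -0.63 to -0.02 with a median of -0.24, beside -0.02 over all genes tested, and *mt-Atp6*, nearest to 0, was at 0.0021 with DESeq2 size factors. For 2 of the 15 genes the groups did not overlap, against 45.5% of all genes tested. Of the 15 genes, 1 was called lower, *mt-Rnr1* at -0.63 (SE 0.16, adjusted p = 0.0272), and 0 higher, where 13.9% of the 15792 genes tested were called lower and 13.5% higher. That call was lost in 5 of 6 fits that left out a library. Without PBS replicate 2, 5 genes were called lower, and without PBS replicate 1, 0 were called. The 3 PP comparisons share libraries, so their values are not independent of each other.

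**Figure D4:**
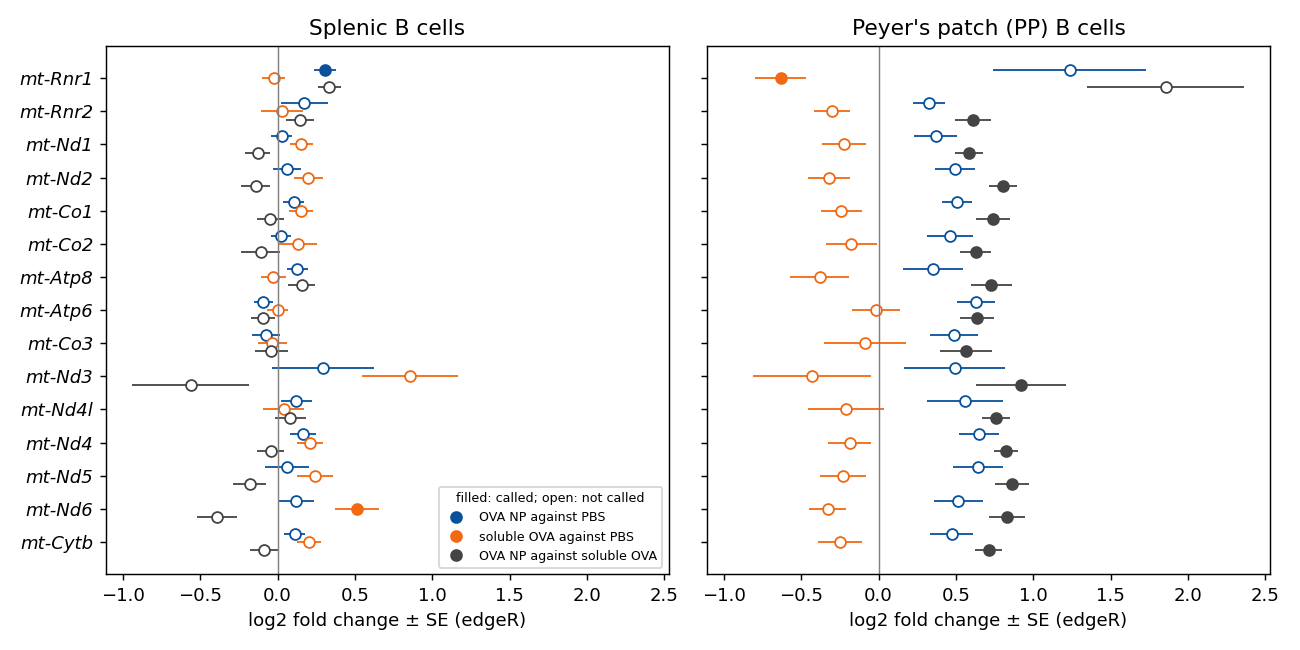
Log2 fold changes (edgeR, bars for SE) of the 15 tested genes between treatments in splenic B cells (left) and PP B cells (right), with filled points for called genes. In PPs the OVA NP against soluble OVA values run from 0.57 to 1.86 and 14 are called, while in spleen 1 gene is called in each of the comparisons with PBS.

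*mt-Rnr1*, the small-subunit rRNA, stood apart within the OVA NP PP group. Replicates 1 to 3 held 1554, 5012, and 4588 CPM, and the counts behind them were 33007, 111750, and 104065. The soluble OVA libraries held 1125, 1045, and 879 CPM and the PBS libraries 1924, 1563, and 1304 CPM, so OVA NP replicate 1 lay within the PBS range and replicates 2 and 3 far above it. *mt-Rnr2*, cut from the same precursor, did not share this split, with 3634, 3671, and 3082 CPM. OVA NP replicate 1 also differed from the others beyond *mt-Rnr1*. The mean chi-square of the count differences per gene was 27.81 between replicates 1 and 2, 25.85 between 1 and 3, and 8.401 between 2 and 3. Between replicates of the other PP groups it was 11.49 to 20.49 with PBS and 14.07 to 41.55 with soluble OVA. The ratio of *mt-Rnr1* to *mt-Rnr2* counts was 0.428, 1.37, and 1.49 with OVA NPs, 0.614, 0.569, and 0.525 with PBS, and 0.492, 0.429, and 0.444 with soluble OVA in PPs, and 0.302 to 0.413 in the 9 spleen libraries. With 3 libraries, the log2 fold change against soluble OVA was 1.86 (SE 0.51, adjusted p = 0.0524), just outside the threshold, and it was 2.17 (SE 0.12, adjusted p = 1.07e-04) without OVA NP replicate 1, 1.52 (SE 0.53, adjusted p = 0.131) without replicate 2, and 1.62 (SE 0.58, adjusted p = 0.138) without replicate 3. Against PBS it was 1.24 (SE 0.49, adjusted p = 0.505), and 1.61 (SE 0.16, adjusted p = 0.0904), 0.96 (SE 0.52, adjusted p = 0.682), and 1.06 (SE 0.57, adjusted p = 0.701) without OVA NP replicates 1, 2, and 3.

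Of the other measures examined in PPs, only some moved with the mitochondrial genes. The nuclear-retained RNAs *Malat1* and *Neat1* (2 of 2 genes above 0) summed to 5058, 6073, and 4804 CPM with OVA NPs, 5761, 4350.3, and 4421 CPM under PBS, and 2559, 2229, and 2718 CPM with soluble OVA. Like the mitochondrial share they were lowest with soluble OVA, and both were called higher with OVA NPs than with soluble OVA. The 12 immediate-early genes respond to stimulation and to tissue handling. In replicates 1 to 3 they summed to 2578, 4135, and 3858 CPM with OVA NPs. The sums were 3655 to 5820.3 CPM under PBS, which overlapped with those with OVA NPs, with the higher mean under PBS. With soluble OVA they were 1861 to 2429 CPM, below every PBS and OVA NP library. The 9 germinal center B cell genes went the other way, with 1582, 2269, and 2229 CPM in replicates 1 to 3 with OVA NPs. They summed to 1963 to 2360.3 CPM under PBS and 3953 to 4201 CPM with soluble OVA. Of the 9, 8 were called lower with OVA NPs than with soluble OVA. The 8 epithelial genes, all above 0 in each PP group, summed to 1086, 518, and 635 CPM with OVA NPs, 515, 209, and 762 CPM under PBS, and 266, 1102, and 998 CPM with soluble OVA. Those 3 groups overlapped. Monocyte, macrophage, and neutrophil genes summed to 147 to 236 CPM with OVA NPs and 93.9 to 105 CPM with soluble OVA, and 3 of the 6 tested were called higher with OVA NPs and 0 lower. The 7 T cell genes were split between OVA NPs and soluble OVA, with 4 called higher and 1 lower. *Cd3e*, *Cd3g*, *Cd4*, and *Cd8a*, which mark T cells, were higher with OVA NPs by 1.70, 1.51, 1.45, and 1.66 on the log2 scale, while the sum over the list was 133 to 140.0 CPM with OVA NPs and 155 to 173 CPM with soluble OVA. *Ly6g*, a neutrophil marker, was at 0 in all PP groups. The part of these cells and states in the result was not tested.

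In spleen, 1 of the 15 genes was called in each of the comparisons with PBS. With OVA NPs it was *mt-Rnr1*, at 483, 499.9, and 522 CPM against 384, 458, and 388 CPM with PBS, groups that did not overlap, with a log2 fold change of 0.31 (SE 0.07, adjusted p = 0.00840). With OVA NPs, 8.60% of the 14200 genes tested were called higher and 6.35% lower. With soluble OVA the called gene was *mt-Nd6*, at 404, 327, and 289 CPM against 279.8, 222, and 226 CPM, with a log2 fold change of 0.51 (SE 0.14, adjusted p = 0.0388), where 10.5% of 14128 genes were called higher and 6.72% lower. In each, 1 of 15 is below the share of all genes called higher. The groups did not overlap for 1 gene with OVA NPs and 4 with soluble OVA, against 38.2% and 38.5% of all genes tested. The *mt-Nd6* call was lost in 4 of 6 fits that left out a library and the *mt-Rnr1* call in 1 of 6. With the copies' counts added, 1 gene was called with OVA NPs and 3 with soluble OVA. The median log2 fold change of the 15 genes was 0.11 with OVA NPs and 0.15 with soluble OVA, beside 0.00 and -0.01 over all genes tested. *mt-Co1* was at 0.10 (SE 0.07, adjusted p = 0.310) with OVA NPs. Between OVA NPs and soluble OVA, 0 of 15 genes were called by edgeR, 2 had an unadjusted p under 0.05 (*mt-Rnr1* at 0.34 and *mt-Nd6* at -0.39), where edgeR called 0.238% of 13840 genes and 8.66% had an unadjusted p under 0.05. DESeq2 called 1, against 0.301% of all genes with a count.

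PP B cells had higher levels of most mitochondrial genes than splenic B cells in every treatment. With PBS, 13 of 15 genes were called higher in PPs and 0 lower, against 45.6% of 15463 genes called in either direction. With soluble OVA 12 were called higher and 0 lower, against 51.1% of 15415, and with OVA NPs 15 were called higher, against 37.1% of 15466. The tissues did not overlap for 13, 12, and 15 of the 15 genes, against 62.5%, 64.1%, and 59.1% of all genes tested. The median log2 fold changes were 1.13, 0.72, and 1.49, beside 0.01, 0.00, and 0.00 over all genes tested. *mt-Co1*, at 11206, 11533, and 10588 CPM in PBS spleen and 32515, 24298, and 29072 CPM in PBS PPs, had log2 fold changes of 1.44 (SE 0.10, adjusted p = 4.49e-06) with PBS, 1.04 (SE 0.12, adjusted p = 8.39e-05) with soluble OVA, and 1.87 (SE 0.06, adjusted p = 3.06e-07) with OVA NPs. *mt-Rnr1* had the largest fold change among the 15 in each treatment, at 2.04, 1.43, and 2.99, above *mt-Rnr2* at 0.96 to 1.47. *mt-Co3* was at 1.21, 1.15, and 1.79, and *mt-Cytb* at 1.18, 0.72, and 1.56.

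The complex I genes *mt-Nd5* and *mt-Nd6* were the weakest of the 15 with PBS and with OVA NPs. *mt-Nd5* was at 0.60 (SE 0.20, adjusted p = 0.0502) with PBS, just outside the threshold, at 0.12 (SE 0.10, adjusted p = 0.365) with soluble OVA, and at 1.20 (SE 0.11, adjusted p = 7.18e-05) with OVA NPs. *mt-Nd6* was at 0.63 (SE 0.15, adjusted p = 0.0131), -0.22 (SE 0.12, adjusted p = 0.165), and 1.05 (SE 0.13, adjusted p = 5.51e-04). Its soluble OVA libraries held 278, 267, and 296 CPM in PPs and 404, 327, and 289 CPM in spleen, which overlapped. *mt-Nd4l* with PBS (0.87, SE 0.28, adjusted p = 0.0527) and *mt-Nd3* with soluble OVA (-0.02, SE 0.38, adjusted p = 0.967) were also not called, and with the copies added *mt-Nd3* was at 0.53 (SE 0.09, adjusted p = 0.00115). The epithelial markers summed to 7.37 to 10.3 CPM in spleen, where *Krt20* and *Fabp2* were at 0, and 209 to 1102 CPM in PPs. The immediate-early genes were at 1158 to 1378 CPM in spleen and 1861 to 5820.3 CPM in PPs, so both lists moved with tissue. T cell genes summed to 68.1 to 87.3 CPM in spleen and 133 to 173 CPM in PPs, plasma cell genes to 477 to 755 and 1009 to 1159, myeloid genes to 58.7 to 308 and 93.9 to 236, and erythroid genes to 7.07 to 28.1 and 0.338 to 4.01. The 9 germinal center B cell genes were all called higher in PPs in every treatment, with median log2 fold changes of 4.35, 1.95, and 1.54 and sums of 314 to 1207 CPM in spleen and 1582 to 4201 CPM in PPs. Of the 7 B cell markers 6 were called lower in PPs in every treatment. The part of these cells in the result was not tested.

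The make-up of the mitochondrial mRNA also differed between tissues. *mt-Co1* made up 44.7% to 48.8% of the counts of the 13 mRNAs in the 9 PP libraries and 37.0% to 41.2% in the 9 spleen libraries. *mt-Nd2* made up 5.32% to 6.48% in PPs and 7.46% to 8.46% in spleen, *mt-Nd5* 5.60% to 7.75% and 9.05% to 11.1%, and *mt-Nd6* 0.470% to 0.658% and 0.791% to 1.28%. For these 4 genes the tissues did not overlap, while the other 9 mRNAs, with *mt-Cytb* at 15.4% to 17.2% in PPs and 16.4% to 17.3% in spleen, overlapped. These shares are taken within the mitochondrial mRNA counts, and none of the 4 genes belongs to the 6 pairs with a near-identical chromosome 1 copy. The total of the 13 mRNAs leaves out the copies' counts, and shares of a total with those counts were not computed.

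The difference between tissues in the response to treatment was tested as an interaction (adjusted p under 0.05, no cutoff on size). For OVA NPs against PBS all 15 interaction estimates were positive, from 0.17 to 0.94 on the log2 scale with a median of 0.45, and 1 was called, *mt-Atp6* at 0.73 (SE 0.15, adjusted p = 0.0175), where 4.42% of 16619 genes were called. With the counts of Gm10925 added, the *mt-Atp6* estimate was 0.31 (SE 0.13, adjusted p = 0.192) and 0 genes were called. For soluble OVA all 15 estimates were negative, from -1.28 to -0.01 with a median of -0.39 (*mt-Atp6*, nearest to 0, was at 0.0049 when scaled without the mitochondrial genes), and 1 was called, *mt-Nd6* at -0.84 (SE 0.21, adjusted p = 0.0338), where 6.84% of 16541 genes were called. That call was lost in 9 of 12 fits that left out a library.

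The nuclear-encoded subunits of the same complexes went the other way from the mitochondrial mRNAs in part of the comparisons. Of 77 nuclear subunit genes, all tested, 58 were called lower and 0 higher with OVA NPs than with soluble OVA in PPs, against 16.3% of all genes called lower. By complex, 22 of 36 genes fell in complex I, 3 of 4 in complex II, which has no mitochondrial subunit, 9 of 9 in complex III, 10 of 11 in complex IV, and 14 of 17 in the ATP synthase. *Ndufc2* of complex I was at -0.70 (SE 0.10, adjusted p = 0.00144), *Cox5b* of complex IV at -0.52 (SE 0.07, adjusted p = 0.00121), and *Atp5a1*, a catalytic-head subunit of the ATP synthase, at -0.55 (SE 0.09, adjusted p = 0.00229). With soluble OVA against PBS in PPs 51 of 77 were called higher and 0 lower, against 13.5% of all genes called higher. With OVA NPs against PBS in PPs 0 were called, as for all genes. In spleen 43 of 77 were called higher with OVA NPs and 46 of 77 with soluble OVA than with PBS, against 8.60% and 10.5% of all genes, while 1 of 15 mitochondrial genes was called in each. With the nuclear copies' counts added to their mitochondrial genes, 1 of 15 was called with OVA NPs and 3 of 15 with soluble OVA. Germinal center genes moved in the same spleen comparisons, with 8 of 9 called higher with OVA NPs and 9 of 9 with soluble OVA (median log2 fold changes 2.44 and 2.80), and their part in the result was not tested.

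Per library, the summed counts of the 13 mitochondrial mRNAs were 13.3, 14.6, and 12.9 times those of the 77 nuclear subunits with OVA NPs in PPs, 10.6, 8.27, and 8.94 times with PBS, and 5.77, 6.32, and 6.26 times with soluble OVA. The 3 PP groups did not overlap in this ratio, which needs no scaling between libraries. In spleen the ratio was 5.36, 5.07, and 4.67 with PBS, 4.40, 5.01, and 4.60 with soluble OVA, and 4.66, 4.23, and 4.67 with OVA NPs, below every PP library. Between tissues, 38 of 77 nuclear subunits were called higher in PPs with PBS, 47 with soluble OVA, and 2 with OVA NPs, and 0 lower in each. Of all genes, 45.6%, 51.1%, and 37.1% were called, a share that takes both directions together. Of the 15 mitochondrial genes, 13, 12, and 15 were called higher and 0 lower.

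**Figure D5:**
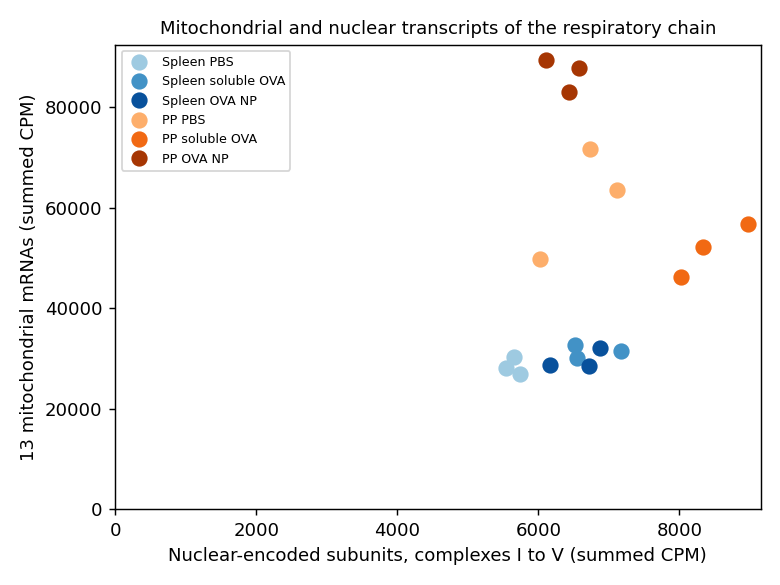
Summed level of the 13 mitochondrial mRNAs against that of 77 nuclear-encoded subunits of complexes I to V (both in CPM), with 1 point per library. The OVA NP PP libraries combine the highest mitochondrial sums (83103 to 89345 CPM) with nuclear sums of 6107 to 6577 CPM, and the soluble OVA PP libraries have the highest nuclear sums (8021 to 8980 CPM).

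Of 16 genes that transcribe and copy the mitochondrial genome, 7 were called lower in PPs with PBS and 0 higher, 9 lower and 2 higher with soluble OVA, and 4 lower and 1 higher with OVA NPs, against 45.6%, 51.1%, and 37.1% of all genes called in either direction. *Mterf1a* and *Mterf4*, members of the mitochondrial transcription termination factor family, were among those lower in all 3 treatments, with *Mterf1a* at -0.62 (SE 0.11, adjusted p = 9.79e-04), -0.71 (SE 0.15, adjusted p = 0.00266), and -0.51 (SE 0.12, adjusted p = 0.00679). *Tfam* was at -0.40 (SE 0.08, adjusted p = 0.00374) with OVA NPs. Between treatments, *Mgme1*, a nuclease of mitochondrial DNA replication, was higher with soluble OVA than with PBS in PPs (0.67, SE 0.11, adjusted p = 0.00255) and lower with OVA NPs than with soluble OVA (-0.44, SE 0.14, adjusted p = 0.0488), the only gene of the list called in the latter, while *Polg2*, a subunit of the replicating polymerase, fell with soluble OVA (-0.40, SE 0.11, adjusted p = 0.0284). No gene of this list was called in the 3 spleen comparisons or with OVA NPs against PBS in PPs.

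Of 19 genes for mitochondrial RNA processing, stability, and decay, 5 were called lower in PPs with PBS, 2 lower and 2 higher with soluble OVA, and 9 lower and 1 higher with OVA NPs, against the same shares of all genes. *Trmt10c*, a subunit of the RNase P that cuts tRNAs from the precursors, was at -0.72 (SE 0.07, adjusted p = 3.01e-05), -0.52 (SE 0.11, adjusted p = 0.00293), and -0.73 (SE 0.12, adjusted p = 0.00135), and *Fastkd5*, needed for processing at sites without tRNAs, at -0.68 (SE 0.13, adjusted p = 0.00160), -0.63 (SE 0.14, adjusted p = 0.00358), and -0.78 (SE 0.17, adjusted p = 0.00615). *Rexo2*, which degrades short RNA fragments in mitochondria, was the only gene of the list called in spleen, higher with OVA NPs (0.36, SE 0.08, adjusted p = 0.00926) and with soluble OVA (0.30, SE 0.07, adjusted p = 0.00813) than with PBS. In PPs it was higher with soluble OVA than with PBS (0.47, SE 0.07, adjusted p = 0.00111) and lower with OVA NPs than with soluble OVA (-0.37, SE 0.07, adjusted p = 0.00447), as were *Grsf1*, a protein of mitochondrial RNA granules (0.41, SE 0.07, adjusted p = 0.00191, then -0.50, SE 0.07, adjusted p = 0.00134), and *Pde12*, which removes poly(A) tails in mitochondria (0.42, SE 0.08, adjusted p = 0.00623, then -0.38, SE 0.10, adjusted p = 0.0216). These 3 of the 19 genes were called in the direction opposite to the mitochondrial transcripts in the PP comparison of OVA NPs with soluble OVA. In that comparison 16.3% of all genes tested were called lower, and 3 of 19 is close to that share. The part of these genes in the result was not tested.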

How the data were processed

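Per the labels and the study's methods, the authors trimmed paired-end poly(A) reads with cutadapt 2.3, aligned them to GRCm38 with STAR 2.7.8a, and deposited expected counts per gene from RSEM 1.3.3, which divides reads that fit several genes. The strand setting and the annotation release are not given in the sources used here. The deposited expected counts were all whole numbers, so no rounding was needed. Rows whose symbol starts with mt- were the genes described, and shares are of all counts of a library. Gene coordinates and sequences come from an annotation of the same build (GRCm38). Each comparison was fitted on its own groups across all genes passing filterByExpr (minimum count 10, minimum total 15) with TMM scaling and the edgeR quasi-likelihood test (edgeR 4.0.16, R 4.3.3), which was also tested on simulated counts. A gene was called at a Benjamini-Hochberg adjusted p under 0.05 when its log2 fold change also exceeded 0.25 in size (interactions: adjusted p only). SEs are of the log2 fold change. All 37 members were accounted for, and the text names members with values by role and by call, and list genes by size among those called. DESeq2 1.42.0, other filters and scalings, a fit of all 18 libraries, a replicate block, and leaving out each library were alternatives, and adding the nuclear copies' counts was an alternative chosen after seeing the data. The members and gene lists were chosen with earlier results of these data known. Libraries with the same replicate number were not treated as paired. In no pair of groups were all 3 same-numbered correlations over 0.1 (means -0.186 to 0.051). Such correlations cannot decide whether same-numbered libraries share a mouse. Replicates of a group differed beyond counting noise, so each counted as its own library. Whether libraries were pooled from several mice is not given in the sources used here, and p-values then measure the spread between these libraries.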

Additional observations from a re-analysis of the deposited data

Results flagged for a closer look

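In each of the interactions with OVA NPs and with soluble OVA, 1 of the 15 tested genes was called, against 4.42% and 6.84% of all genes tested, so the share of members was near that of all genes. For these genes the response to treatment differed between PP and splenic B cells by a test of the difference itself (edgeR interaction term). The *mt-Atp6* response to OVA NPs against PBS was higher in PPs by 0.73 on the log2 scale (adjusted p = 0.0175), with 924, 1004, and 857 CPM against 705, 489.7, and 624 CPM in PPs and 348, 337, and 292 CPM against 332, 351, and 369 CPM in spleen. The libraries of *mt-Atp6* overlapped in spleen and did not in PPs. With the counts of Gm10925 added it was 0.31 and not called. The *mt-Nd6* response to soluble OVA against PBS differed by -0.84 (adjusted p = 0.0338), with 278, 267, and 296 CPM against 418, 287, and 365 CPM in PPs and 404, 327, and 289 CPM against 279.8, 222, and 226 CPM in spleen. It was lost in 9 of 12 fits that left out a library.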

How the results depend on the processing

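Of 2655 tests of single genes under an alternative, 2476 kept direction and side of the threshold, 45 lost a call, 65 gained one, and 69 changed sign. The sign changes were of genes not called in the setting reported, and 1 became a call, *mt-Nd3* for PPs against spleen with soluble OVA, at 0.53 with the nuclear copies added. For OVA NPs against PBS in spleen, the changed signs were *mt-Atp6* at 0.17 (copies added) and *mt-Co3* at 0.12 (copies added). For soluble OVA against PBS in spleen, the changed signs were *mt-Atp6* at -0.019 (no TMM) and -0.016 (no filter) and *mt-Co3* at 0.081 (copies added). For OVA NPs against soluble OVA in spleen, the changed signs were *mt-Co3* at 0.041 (copies added) and *mt-Nd3* at 0.045 (copies added). For soluble OVA against PBS in PPs, the changed signs were *mt-Atp6* at 0.014 (DESeq2), 0.0021 (DESeq2 size factors), and 0.023 (no filter). For PPs against spleen with soluble OVA, the changed signs were *mt-Nd3* at 0.00050 (DESeq2) and 0.0010 (DESeq2 size factors). For the soluble OVA interaction, the changed signs were *mt-Atp6* at 0.0049 (scaled without mitochondrial genes) and 0.024 (no filter). Where leaving out a library changed a sign, the values ran as follows. In OVA NPs against PBS in spleen they were -0.037 to 0.059 for *mt-Nd1*, -0.013 to 0.17 for *mt-Nd2*, -0.035 to 0.066 for *mt-Co2*, -0.16 to 0.0092 for *mt-Co3*, -0.082 to 0.56 for *mt-Nd3*, and -0.047 to 0.21 for *mt-Nd5*. In soluble OVA against PBS in spleen they were -0.067 to 0.062 for *mt-Rnr1*, -0.12 to 0.14 for *mt-Rnr2*, -0.0011 to 0.28 for *mt-Co2*, -0.083 to 0.057 for *mt-Atp8*, -0.041 to 0.044 for *mt-Atp6*, -0.085 to 0.076 for *mt-Co3*, and -0.084 to 0.16 for *mt-Nd4l*. In OVA NPs against soluble OVA in spleen they were -0.066 to 0.0019 for *mt-Co1*, -0.24 to 0.023 for *mt-Co2*, -0.13 to 0.051 for *mt-Co3*, and -0.12 to 0.015 for *mt-Nd4*. In soluble OVA against PBS in PPs they were -0.10 to 0.11 for *mt-Atp6* and -0.29 to 0.084 for *mt-Co3*. In PPs against spleen with soluble OVA they were -0.32 to 0.23 for *mt-Nd3*. In the OVA NP interaction they were -0.057 to 0.59 for *mt-Nd3*. In the soluble OVA interaction they were -0.12 to 0.12 for *mt-Atp6* and -0.29 to 0.11 for *mt-Co3*. Counts of called genes moved by over 1.5 times as follows, and the cause was not tested. With DESeq2 they were 1 for OVA NPs against soluble OVA in spleen, 8 for OVA NPs against PBS in PPs, 3 for soluble OVA against PBS in PPs, and 4 and 3 for the OVA NP and soluble OVA interactions. Without a count filter they were 2 for soluble OVA against PBS and 2 for OVA NPs against soluble OVA in spleen, 3 for each treatment against PBS in PPs, and 2 and 0 for the interactions. With all 18 libraries in the fit they were 0 for OVA NPs against PBS in spleen, and 2 for OVA NPs and 0 for soluble OVA against PBS in PPs. With the copies added they were 3 for soluble OVA against PBS in spleen and 0 for the OVA NP interaction. Whether the replicate numbers pair the libraries is not known. With a replicate block, 1, 1, and 0 genes were called in spleen (OVA NPs against PBS, soluble OVA against PBS, OVA NPs against soluble OVA), 0, 1, and 13 in PPs in the same order, and 15, 12, and 15 between tissues (PBS, soluble OVA, OVA NPs), with 2 and 1 for the interactions. On a per-kilobase basis the log2 ratio of shares was 0.057 for soluble OVA against PBS in spleen, and 0.94 with PBS and 1.36 with OVA NPs for PPs against spleen. Leaving out each library in turn, in the same order of comparisons, the log2 ratios of shares ran from 0.02 to 0.12, 0.09 to 0.19, and -0.12 to -0.03 in spleen, 0.38 to 0.63, -0.39 to -0.14, and 0.70 to 0.84 in PPs, and 1.02 to 1.26, 0.66 to 0.80, and 1.54 to 1.62 between tissues, with a difference of 3.83 to 4.21 percentage points over all treatments. The counts ran from 0 to 1, 0 to 3, and 0 to 0, then 0 to 0, 0 to 5, and 12 to 13, then 12 to 15, 11 to 12, and 14 to 15, with 1 to 3 and 0 to 5 for the interactions. The soluble OVA counts of 5 came without PP PBS replicate 2, and the OVA NP interaction gave 3 without PP PBS replicate 1 and 2 without PP OVA NP replicate 1. In spleen, 3 genes were called for soluble OVA without PBS replicate 1. The tRNAs were at 0, as were all other genes of their length, and *mt-Nd3* had 21 to 147 counts, so counting error bears most on *mt-Nd3* among the 15.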
